A study of Homo sapiens with 12 samples.

Results

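The 9 genes described here act in antigen presentation by the major histocompatibility complex (MHC) class I, and were taken by name from the deposited table of 58037 genes. They comprise the heavy chains *HLA-B*, *HLA-C*, *HLA-E* and *HLA-F*, the light chain *B2M*, the peptide transporter genes *TAP1* and *TAP2*, the loading factor *TAPBP*, and *NLRC5*, a regulator of class I transcription. All 9 were found by their Ensembl identifiers. The table comes from RNA sequencing of HCT116, a human colorectal carcinoma line labelled as wild type. The samples were exposed for 8 h to DMSO, the solvent control, to 10 μM Nutlin-3a, which frees p53 from MDM2, to 20 nM NVP-2, an inhibitor of the P-TEFb kinase, or to 10 μM Nutlin-3a together with 20 nM NVP-2, with 3 samples in each of these 4 groups.

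The 12 columns of the table were identical. The number of genes with different counts was 0, and each column summed to 22720718 counts. The columns were counted as 1 sample, a profile of HCT116 cells whose treatment is not known. No effect of either drug and no spread between replicates could be measured, and each value below stands for all 12 columns. Intervals cover counting error only. The profile carried the markers of an epithelial line, since all 6 epithelial markers had an RPKM of at least 1, among them *EPCAM* (182) and *KRT8* (514). RPKM is CPM, the count of a gene scaled to the column total as is usual for sequencing libraries, divided by the gene length in kilobases, and the study also took an RPKM of 1 as the limit of expression. None of the 9 blood and immune cell markers reached it with the length taken from merged exons, 4 of them having 0 counts, including *PTPRC* and *MS4A1*, and the list summed to 96 counts. None of the 7 fibroblast and endothelial markers reached it either, with 199 of their 244 counts on *COL1A1*. With the shorter canonical transcript 1 marker of each of these lists did, *HBB* at 1.61 and *COL1A1* at 1.48.

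Class I molecules display peptides from inside the cell to CD8+ T cells and natural killer cells. A polymorphic heavy chain pairs with the invariant light chain, beta-2-microglobulin, in the endoplasmic reticulum. Peptides made by the proteasome enter that compartment through the TAP transporter, and tapasin holds the empty heavy chain next to the transporter until a peptide has bound. Interferon-gamma raises many of these genes, in part through NLRC5, which works at the class I promoters with DNA-bound factors of the RFX, CREB and NF-Y families. Loss of these steps is a known route of immune escape in colorectal cancer.

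Together, the 9 genes took 30104 counts, or 0.132% of the total. Their levels per length spanned more than 2 orders of magnitude, from *HLA-C* at an RPKM of 184 to *NLRC5* at 0.330. In this bulk profile, fewer cells with an mRNA and less of it per cell cannot be told apart. By the summed length of their merged exons, the order was *HLA-C*, *B2M*, *HLA-B*, *HLA-E*, *TAP1*, *TAPBP*, *TAP2*, *HLA-F* and *NLRC5*. The intervals of neighbours in this order were separate except for *TAP1* and *TAPBP*. Of the 9 genes, 8 had an RPKM of at least 1, beside 44.6% of the 19629 protein-coding genes in the table.

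**Figure D1:**
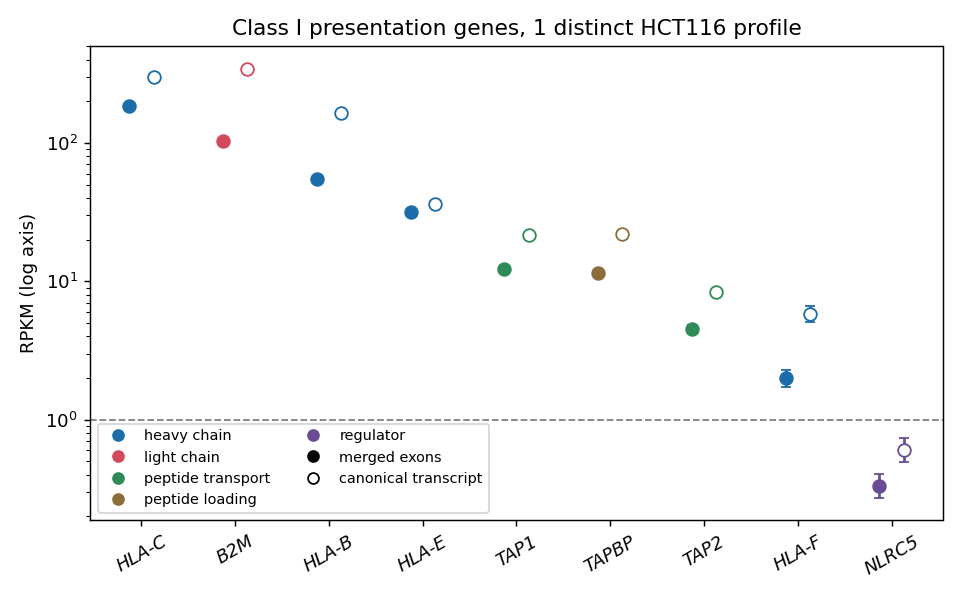
RPKM of the 9 genes on a log axis, with the length taken from merged exons (filled) or from the canonical transcript (open). Bars are 95% counting intervals, often smaller than the symbol, and the dashed line is an RPKM of 1. *NLRC5* is the gene under the line on either length, and *B2M* passes *HLA-C* on the canonical length.

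The length of a gene decides part of this order. Merged exons add up every annotated isoform, retained introns included, whereas the canonical transcript is the isoform the annotation names as representative. With the canonical length the RPKM of all 9 genes was higher, by 1.15-fold for *HLA-E* and up to 3.31-fold for *B2M*. The order of *HLA-C* and *B2M* then turned around, as did that of *TAP1* and *TAPBP*, whose intervals overlapped on both lengths.

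Among the 4 heavy-chain members, *HLA-C* had the highest level. It lies on the minus strand of chromosome 6 between 31268749 and 31272130 (hg38), with 8 exons in the canonical transcript, and had 10493 counts. This corresponds to 462 CPM (95% Wilson interval 453 to 471). Its RPKM was 184 by merged exons and 299 by the canonical transcript. HLA-C presents peptides to T cells and is also a ligand of killer-cell inhibitory receptors.

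*HLA-B*, the most polymorphic of the classical heavy chains, lies on the same strand of chromosome 6, between 31353872 and 31367067. It had 5759 counts, or 253 CPM (247 to 260.1). Its RPKM was 54.8 over 4623 bases of merged exons and 165 over the 1536 bases of the canonical transcript. Of its merged exons, 1514 bases are also covered by *DHFRP2* or *MIR6891* on the same strand, which had 1 and 0 counts, and without them its RPKM was 81.5. Over all merged exons, *HLA-C* was 3.36-fold higher than *HLA-B* per length (exact 95% counting interval 3.25 to 3.47). Without the shared bases it was 2.26-fold higher, an alternative chosen after the data were seen. By canonical transcripts it was 1.81-fold higher (1.76 to 1.87), so the size of the difference depended on the length used. The direction was the same each time.

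*HLA-E* and *HLA-F* are the less polymorphic, nonclassical heavy chains. HLA-E presents peptides cut from the leaders of other class I heavy chains and is read by the NKG2A and NKG2C receptors of natural killer cells. Its gene, on the plus strand between 30489509 and 30494194, had 2108 counts and 92.8 CPM (88.9 to 96.8). Its RPKM was 31.8 by merged exons and 36.4 by the canonical transcript, below *HLA-B* by 1.73-fold and 4.53-fold, respectively.

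*HLA-F*, between 29722775 and 29738528 on the plus strand, encodes a heavy chain that can reach the cell surface without peptide. It had 195 counts and 8.58 CPM (7.46 to 9.87), with an RPKM of 1.99 by merged exons and 5.80 by the canonical transcript. *HLA-E* exceeded it by 16-fold on the first length and by 6.28-fold on the second. Of the summed RPKM of the 4 heavy chains, *HLA-C* made up 67.5%, *HLA-B* 20.1%, *HLA-E* 11.6% and *HLA-F* 0.729% by merged exons. By canonical transcripts the shares were 59.1%, 32.6%, 7.19% and 1.14%.

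*B2M* encodes the light chain of class I molecules. It lies outside the MHC, on the plus strand of chromosome 15 between 44711358 and 44718851, and has a coding sequence of 357 nt. The gene had 7340 counts, or 323 CPM (316 to 331). Its RPKM was 104 over 3121 bases of merged exons but 343 over the canonical transcript of 943 bases.

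Set against the heavy chains, *B2M* gave 0.379 of the summed RPKM of the 4 heavy-chain members by merged exons (0.369 to 0.390) and 0.676 by canonical transcripts (0.658 to 0.695). It was thus below the sum on both lengths. Against *HLA-C* alone it was at 0.562 (0.545 to 0.579) by merged exons and at 1.14 (1.11 to 1.18) by canonical transcripts, so that the direction of this comparison was set by the length. The sum holds these 4 genes alone and is not the total of class I heavy chains.

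The peptide transporter is a heterodimer of TAP1 and TAP2, whose genes lie close together on the minus strand of chromosome 6. *TAP1*, between 32845209 and 32853816, had 1319 counts, 58.1 CPM (55 to 61.3) and an RPKM of 12.3. *TAP2*, between 32821833 and 32838739, had 1069 counts, 47.0 CPM (44.3 to 49.96) and an RPKM of 4.54. Although their counts were close, *TAP1* was 2.7-fold higher than *TAP2* per length (2.49 to 2.93), and 2.59-fold higher by canonical transcripts (2.39 to 2.81).

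Part of *TAP2* could not be counted as cleanly as *TAP1*. An annotated gene on the same strand, ENSG00000250264, covers 2023 of the 5643 bases of its canonical transcript and had 0 counts. Reads that fall in exons of more than 1 gene are not assigned under the standard setting of featureCounts, and the setting used is not given in the sources used here. With those bases left out of the length, the RPKM of *TAP2* was 5.65 by merged exons and 13 by the canonical transcript, and *TAP1* was 2.17-fold and 1.66-fold higher, respectively. This alternative was chosen after the data were seen.

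Tapasin, the product of *TAPBP*, bridges the heavy chain to the transporter and favours the exchange of weakly bound peptides. Its gene lies on the minus strand between 33299694 and 33314284 and had 1728 counts, 76.1 CPM (72.6 to 79.7) and an RPKM of 11.4. The ratio of *TAPBP* to *TAP1* was 0.934 by merged exons (0.869 to 1.00) and 1.02 by canonical transcripts (0.949 to 1.10). Neither interval separated the levels of these genes. By merged exons, *HLA-E* was 2.59-fold above *TAP1*, the highest of the 3 transport and loading genes.

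*NLRC5* is the longest of the genes, with 49 exons in its canonical transcript. On the plus strand of chromosome 16, it occupies 94047 bp between 56989485 and 57083531. Its product is a class I transactivator of the NOD-like receptor family. It had 93 counts, or 4.09 CPM (3.34 to 5.0), well over the 3 counts that mark the detection floor (0.132 CPM). Per length it was at an RPKM of 0.330 by merged exons (0.270 to 0.405) and 0.604 by the canonical transcript (0.493 to 0.739). The regulator stood at 0.0270 of the level of *TAP1* (0.0216 to 0.0333), and at 0.0279 by canonical transcripts. *HLA-F*, its neighbour in the order, was 6.02-fold higher by merged exons.

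Placed by merged exons among the 8754 protein-coding genes with an RPKM of at least 1, *HLA-C* ranked 183rd, *B2M* 365th, *HLA-B* 714th and *HLA-E* 1240th. *TAP1* was at rank 2749 and *TAPBP* at rank 2896. These 6 genes lay above the median RPKM of that set, which was 6.03, and the first 3 also above its 90th percentile, 44.7. *TAP2*, at rank 5038, and *HLA-F*, at rank 7212, lay under the median. *NLRC5* was outside the set, but 27.2% of the 14850 protein-coding genes with at least 1 count had a lower RPKM. Ranks were not taken on the canonical length, on which *B2M* passed *HLA-C*.

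**Figure D2:**
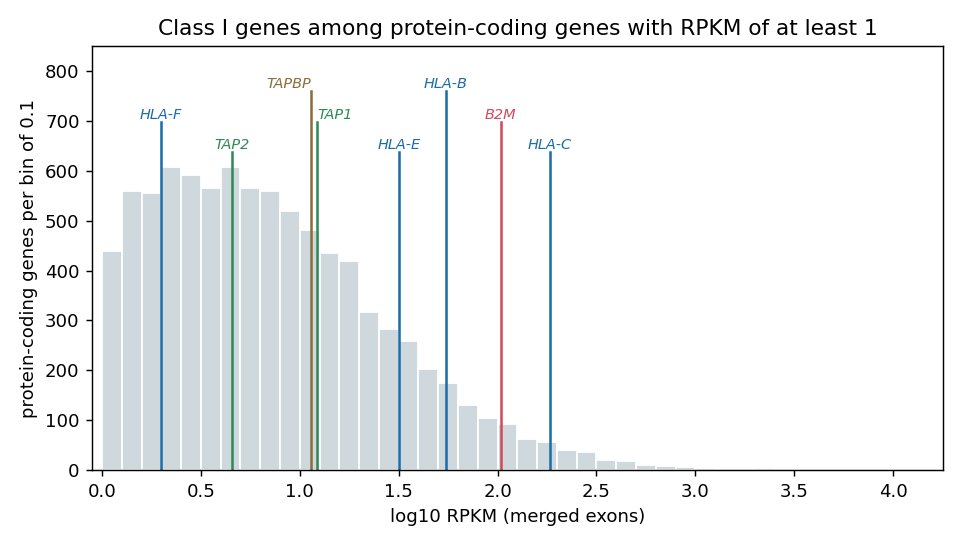
Number of protein-coding genes per bin of log10 RPKM (merged exons), for genes with an RPKM of at least 1, with vertical lines at 8 of the 9 genes coloured by role. *HLA-C*, *B2M* and *HLA-B* stand in the upper tail, *TAP1* and *TAPBP* above the median of 6.03, and *TAP2* and *HLA-F* below it.

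Because the heavy chains are alike in sequence, the transcripts of the genes were searched for stretches of 75 bases, the read length of the study, that also occur elsewhere. The coding sequences of *HLA-B* and *HLA-C* were identical at 92.5% of aligned bases, and those of *HLA-E* and *HLA-F*, the least alike pair of heavy-chain members, at 84.6%. For comparison, *TAP1* and *TAP2* were identical at 66.2%. Nevertheless, of the 75-base windows in each canonical transcript, few occurred without mismatch in another gene or elsewhere on the assembled chromosomes. The number was 0 of 1462 for *HLA-B* and 0 of 1406 for *HLA-F*. It was 29 of 1468 for *HLA-C* (1.98%), and 57 of 2474 for *HLA-E* (2.30%). Only exact matches of the canonical reference transcripts were counted, so the placing of reads that carry mismatches was not tested.

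All 29 shared windows of *HLA-C* occurred in the class I pseudogene *HLA-H*, whereas *HLA-E* shared 40 windows with *HLA-G* and 11 with *HLA-H*. *B2M* and *NLRC5* had 0 shared windows. *TAPBP* had 145 of 3376 (4.30%), in part with genes of no relation such as *CDC42* and *MFN1*, and *TAP2* had 1949 of 5569 (35%), all of them in the overlapping gene named above. With windows of 50 bases, the heavy-chain shares rose to between 1.89% for *HLA-F* and 7.04% for *HLA-E*. The 9 class I pseudogenes of the list held 655 counts in all, 359 of them on *HLA-H*, against 18555 on the 4 heavy-chain members.

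**Figure D3:**
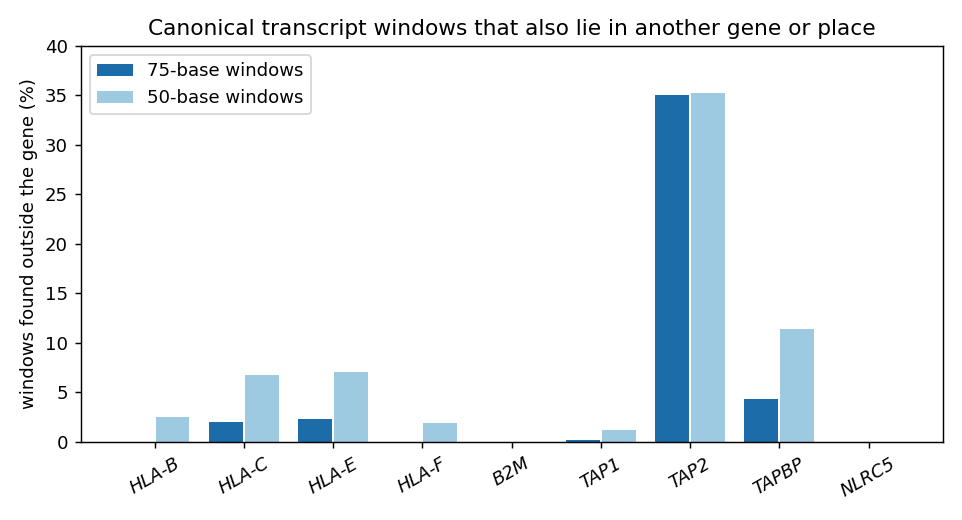
Share of the windows of each canonical transcript, in percent, that occur without mismatch in a transcript of another gene or elsewhere on the assembled chromosomes of hg38, for windows of 75 bases (dark) and 50 bases (light). *TAP2* stands apart at 35%, where an annotated gene covers the same exons, and the heavy chains do not exceed 2.30% at 75 bases.

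The genome also carries alternate versions of the MHC. Of the 75-base windows, 42.1% of those of *HLA-B*, 60.2% of *HLA-C*, 82.4% of *HLA-E* and 66.9% of *HLA-F* occurred exactly in at least 1 alternate sequence of chromosome 6 in hg38. Windows that cross a splice junction can be missing from a genomic sequence for that reason alone, and then count against these shares. The canonical transcripts also differ in length, so the shares of the genes are not strictly comparable. Of the 4 heavy chains, *HLA-B* had the smallest share. Whether such sequences were part of the authors' reference is not given in the sources used here. The class I alleles of HCT116 were not analysed, and the effect of their differences from the reference on the counts of *HLA-B* and *HLA-C* was not tested.

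To see what the genes share in their control regions, their promoters were searched for the letters of motifs known from class I genes. RefSeq promoter windows (GRCh38.p14), from 250 bases before to 50 bases after the transcription start, were matched for 7 of the 9 genes, with *HLA-E* and *NLRC5* missing. The letters were settled after the windows had been looked at, with several other patterns tried and dropped, so the counts that follow are descriptions alone. The interferon-stimulated response element (ISRE) was searched as TTTCNNTTTC and the nuclear factor kappa-B site as GGGANNNNCC. CCAAT, the letters bound by NF-Y, was also searched in the longer form CTGATTGG, which contains it in reverse complement, and the CREB-like site as TGACG. All were searched on both strands. The following stretches, the 160 bases before the start, show a heavy chain with a high level, a heavy chain with a low level, the light chain and a transporter gene. The letters of the ISRE and of CTGATTGG, or its reverse complement, are in capitals.

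*HLA-C*, chr6:31272093-31272252, minus strand: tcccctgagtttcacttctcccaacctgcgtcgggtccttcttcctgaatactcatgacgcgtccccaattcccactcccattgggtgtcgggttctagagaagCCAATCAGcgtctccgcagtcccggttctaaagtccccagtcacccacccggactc
*HLA-F*, chr6:29723274-29723433, plus strand: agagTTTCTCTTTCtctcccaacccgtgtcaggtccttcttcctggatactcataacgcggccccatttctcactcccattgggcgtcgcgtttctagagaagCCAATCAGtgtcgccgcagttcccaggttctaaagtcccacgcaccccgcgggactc
*B2M*, chr15:44711357-44711516, plus strand: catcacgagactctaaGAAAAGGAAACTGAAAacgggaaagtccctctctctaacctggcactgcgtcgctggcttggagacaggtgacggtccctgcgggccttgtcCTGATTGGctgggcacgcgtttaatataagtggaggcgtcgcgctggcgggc
*TAP1*, chr6:32853705-32853864, minus strand: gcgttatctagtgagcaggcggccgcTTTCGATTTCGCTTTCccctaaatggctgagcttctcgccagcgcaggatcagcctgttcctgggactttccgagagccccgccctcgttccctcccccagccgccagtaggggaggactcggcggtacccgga

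The extended CCAAT letters were found in 4 of the 7 genes, namely *HLA-B*, *HLA-C*, *HLA-F* and *B2M*, and in 3.97% of all 35116 promoter windows. Their place was nearly the same, from 56 to 49 bases before the start in *HLA-B* and *HLA-C*, from 57 to 50 in *HLA-F* and from 52 to 45 in *B2M*, where they stand on the opposite strand. These letters were not in the windows of *TAP1*, *TAP2* or *TAPBP*, and whether they bear on the levels of the genes was not tested.

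The ISRE letters were found in 5 of the 7 genes, beside 3.57% of all windows. They stood 156 to 147 bases before the start in *HLA-F*, 58 to 49 in *TAP2*, and in a pair of overlapping copies in *B2M*, *TAP1* and *TAPBP*. The windows of *HLA-B* and *HLA-C* did not hold these exact letters. The kappa-B letters were also in 5 of the 7, *B2M*, *HLA-B*, *HLA-C*, *TAP1* and *TAPBP* (25.6% of all windows). Those of CCAAT were in 5, *B2M*, *HLA-B*, *HLA-C*, *HLA-F* and *TAP1* (34.6%). The CREB-like letters were in 4, *B2M*, *HLA-B*, *HLA-C* and *TAP2* (24.6%). These matches are a description of the reference sequence, and no binding was measured here.

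**Figure D4:**
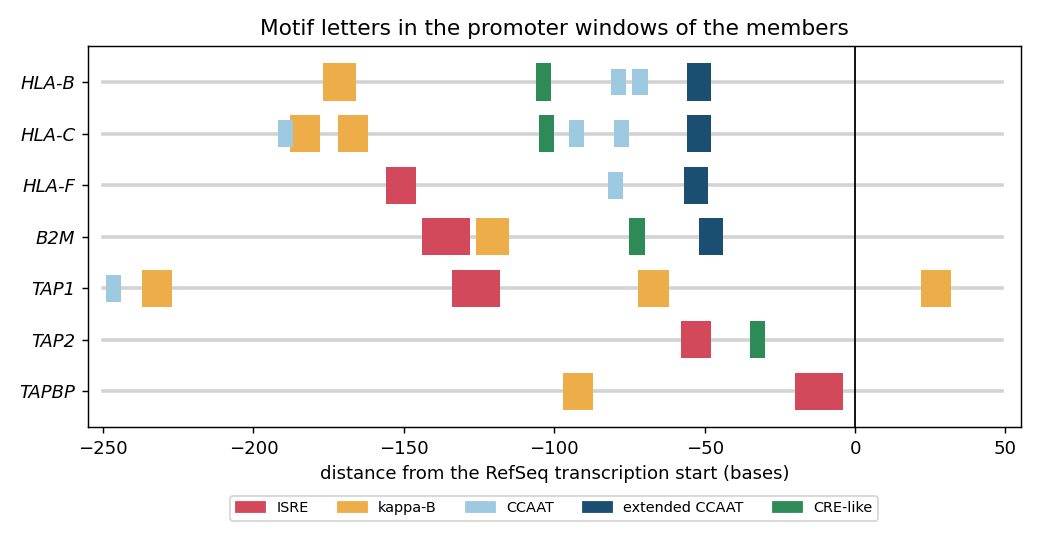
Places of the motif letters in the promoter windows of 7 genes, by distance in bases from the RefSeq transcription start (vertical line), coloured by motif. The extended CCAAT letters line up between 57 and 45 bases before the start in *HLA-B*, *HLA-C*, *HLA-F* and *B2M*, and the ISRE letters lie at different distances in the transport and loading genes.

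The other genes of the pathway were taken from lists written with earlier results of these data known, and are given in RPKM by merged exons. The immunoproteasome is the interferon-induced form of the proteasome, in which PSMB8, PSMB9 and PSMB10 replace the catalytic subunits PSMB5, PSMB6 and PSMB7. *PSMB8* was at 0.0759 on 6 counts, *PSMB9* at 0.976 on 74 counts and *PSMB10* at 1.71 on 63 counts. By canonical transcripts *PSMB9* was at 3.20, while *PSMB8* stayed under 1. The constitutive subunits were at 159 for *PSMB5*, 137 for *PSMB6* and 159 for *PSMB7*. Of the proteasome activator subunits, *PSME1* was at 62.4, *PSME2* at 25.2 and *PSME3* at 48.0.

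*PSMB9* and *TAP1* are transcribed away from each other, with RefSeq starts 488 bases apart. By RPKM, *TAP1* was 12.6-fold higher than *PSMB9* by merged exons (9.93 to 16.1) and 6.75-fold higher by canonical transcripts (5.34 to 8.65). The ISRE letters of *TAP1* lie in this stretch, 134 to 119 bases before its start.

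Of the 8 genes for trimming and loading peptides, 6 had an RPKM of at least 1. The highest was *CALR* at 437, followed by *HSPA5* at 182, which encodes the chaperone BiP, *CANX* at 104 and *PDIA3* at 47.4. These chaperones also serve the folding of other proteins of the endoplasmic reticulum. The trimming peptidases of the endoplasmic reticulum were much lower, *ERAP1* at 1.34 and *ERAP2* at 0.215. *TAPBPL*, which encodes the tapasin-related protein TAPBPR, had 5 counts and an RPKM of 0.0690.

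Among the 12 transcription factors of class I promoters, 8 had an RPKM of at least 1, and the median was 2.37. The RFX subunits that NLRC5 works with differed, with *RFXANK* at 6.89, *RFX5* at 4.81 and *RFXAP* at 0.420. The NF-Y subunits were at 2.09 for *NFYA*, 2.65 for *NFYB* and 5.54 for *NFYC*, and *CREB1* was at 0.421. *RELA*, a subunit of nuclear factor kappa-B, was the highest at 9.65, whereas the interferon-responsive *IRF1* was at 0.459 and *IRF2* at 0.164. By canonical transcripts *IRF1* was at 1.59 and *IRF2* at 0.488, and 9 of the 12 genes had an RPKM of at least 1. Each of the 12 was detected, with the fewest counts, 22, on *RFXAP*.

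The interferon pathway had 6 of its 12 genes at an RPKM of at least 1. Both receptor chains for interferon-gamma were detected, *IFNGR1* at 2.46 and *IFNGR2* at 17.4, as were the kinases *JAK1* at 5.48 and *TYK2* at 7.59. *JAK2* was at 0.301, and *IRF9*, whose product binds the ISRE, was at 0.0612 on 9 counts. The genes for the interferons themselves, *IFNG* and *IFNB1*, had 0 counts, which allows up to 0.132 CPM when 3 counts are taken as the limit.

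**Figure D5:**
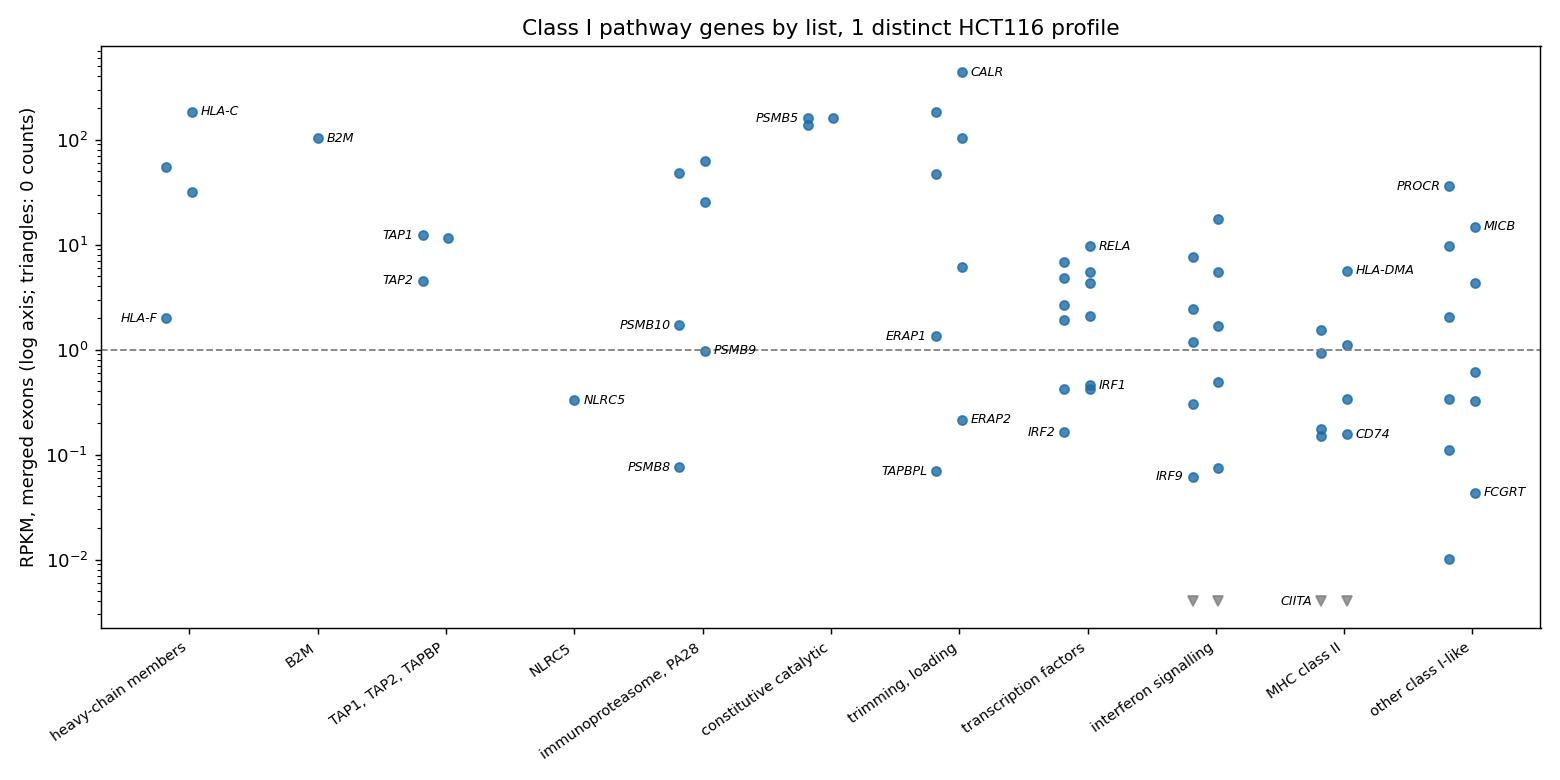
RPKM by merged exons on a log axis for the genes of each list, with triangles for genes at 0 counts and a dashed line at an RPKM of 1. The immunoproteasome subunits *PSMB8*, *PSMB9* and *PSMB10* lie near or under the line, whereas the constitutive catalytic subunits and the loading chaperones lie with the highest heavy chains.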

How the data were processed

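The authors sequenced polyA-selected, strand-marked libraries as single-end reads of 75 bases, aligned them to hg38 by ContextMap and BWA, and summed reads per gene on the sense strand by featureCounts with Gencode version 25. The deposited table holds these raw counts, not normalized, for 58037 genes in 12 columns. Columns were given to samples by name alone and compared gene by gene. As no gene differed, they were used as 1 profile, and the comparisons between treatments planned with edgeR, the authors' tool, were not run. Members and lists were chosen with earlier results of these data known, and every gene kept in those lists could be named. Some genes of the lists are not reported here, and were left out of the counts. The ratios planned were *B2M* over the heavy chains, *HLA-C* over *HLA-B*, *TAP1* over *TAP2* and *NLRC5* over *TAP1*, and all other ratios were added after the values were seen, as were the exact motif letters.

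Identifiers were matched without their suffix to GENCODE 44 in place of version 25 (56948 matched, with 99.8% of the counts). CPM is relative to the column total of 22720718, and RPKM uses merged exons or the canonical transcript of GENCODE 44, so exons added since version 25 lengthen some genes. Intervals of 95% are Wilson for levels and exact binomial for ratios of 2 genes. For sums the delta method replaced the exact interval. Windows were searched on both strands of the chromosomes of hg38, and on the strand of the gene in all transcripts. Coding sequences were aligned with Biopython 1.88. The column comparison and the window and motif searches were tested on simulated data. Python 3.11.15 and scipy 1.17.1 were used.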

Additional observations from a re-analysis of the deposited data

How the results depend on the processing

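No paired analysis was possible because the samples, though numbered alike in each group, share 1 identical set of counts. For the same reason the tests of treatment effects, with other normalizations, filters or left-out replicates, were not run, and without replicates only counting error limits these values. Among the ratios of 2 members, *B2M* over *HLA-C* turned its direction, at 0.562 by merged exons and 1.14 by canonical transcripts. Its intervals lay apart from 1 on both lengths. *TAPBP* over *TAP1* also passed 1, at 0.934 by merged exons and 1.02 by canonical transcripts, with intervals that included 1 on both lengths. It was 1.31 without a length (1.22 to 1.41). *B2M* over the 4 heavy chains was 0.379, with 0.676 by canonical transcripts, 0.396 without a length and 0.341 with the pseudogenes added. *HLA-C* over *HLA-B* was 3.36, with 1.81 by canonical transcripts and 1.82 without a length. *TAP1* over *TAP2* was 2.7, and 1.23 without a length. *NLRC5* over *TAP1* was 0.0270, and 0.0705 without a length. As an alternative chosen after the data were seen, leaving out bases shared with a same-strand gene gave 0.346 for *B2M* over the 4 heavy chains, 2.26 for *HLA-C* over *HLA-B* and 2.17 for *TAP1* over *TAP2*. The length and the sums differ by construction. Other totals scaled every CPM by the same factor, 1.12 without mitochondrial genes and 1.10 over protein-coding genes, and TPM was 2.40 times RPKM for every gene, so that neither changed an order. The number of members with an RPKM of at least 1 was 8 on both lengths.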

Other observations

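Further genes related to class I were read from the same profile, again in RPKM by merged exons. Of 11 class I-like genes, 5 had an RPKM of at least 1. *PROCR*, the endothelial protein C receptor, was the highest at 35.9, followed by the NKG2D ligands *MICB* at 14.8, *MICA* at 9.66 and *ULBP2* at 4.29, and by the iron regulator *HFE* at 2.05. *FCGRT*, whose product also pairs with beta-2-microglobulin, had 4 counts, and the lipid-presenting *CD1D* had 1.

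Class II genes present peptides from outside the cell and are controlled by CIITA, a relative of NLRC5. *CIITA* had 0 counts, against 93 for *NLRC5*, and 3 of the 10 class II genes reached an RPKM of 1. These were *HLA-DMA* at 5.62, *HLA-DMB* at 1.53 and *HLA-DRB1* at 1.10, whereas *HLA-DRA* was at 0.920 and *CD74*, the invariant chain, at 0.156. The reads of *HLA-DRB1* can be shared with related genes, which was not examined here.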
